A study of Mus musculus with 8 samples.

Results

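The nuclear genes of mitochondrial complex I were examined in 3T3-L1 adipocytes, a mouse line of pre-adipocytes that is differentiated into fat cells in culture. All protein-coding nuclear genes with a mouse symbol that starts with Nduf were taken, which gave 46 of the 43629 genes counted. Of these, 7 were core subunits, 29 were accessory subunits, 8 were assembly factors, and 2 (Ndufa4 and Ndufa4l2) fell in no class, since Ndufa4 is now regarded as a subunit of complex IV. A further 5 annotated Nduf genes are not protein-coding and were left out, among them the mouse form of Ndufb1.

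Cells on day 8 of differentiation were left untreated, or received A66, palmitate, or palmitate plus A66 for 24 h, and messenger RNA was sequenced from 2 samples of each group. A66 inhibits p110α, the α isoform of the catalytic subunit of phosphoinositide 3-kinase, and palmitate is a saturated fatty acid that was given bound to albumin. The labels give 2 µM A66, 0.5 mM palmitate and controls named untreated, whereas the methods of the study give a dose of 1 µM A66 and DMSO as vehicle, so the dose and the presence of vehicle in the controls are uncertain. All groups came from 1 cell line and went through the same differentiation, and each direction rests on the sample labels. The comparisons ask how inhibition of p110α, a fatty acid load, and both at once go with the transcripts of complex I.

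Complex I is the NADH:ubiquinone oxidoreductase of the inner mitochondrial membrane. Its matrix arm takes electrons from NADH and passes them along a flavin and a chain of iron-sulfur clusters to ubiquinone, and its membrane arm pumps protons. The core subunits of the matrix arm are nuclear, those of the membrane arm are encoded by mitochondrial DNA, the accessory subunits surround the core, and assembly factors help to build the enzyme and then leave it. In adipocytes the respiratory chain provides ATP and oxidizes the NADH formed when fuels are broken down.

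With A66 or palmitate alone the median difference of the Nduf transcripts from untreated cells was 0.037 and 0.017 on the log2 scale, and 1 member (Ndufb9, higher with A66) was past an adjusted p of 0.05 in edgeR's quasi-likelihood test. With both agents together 38 of 45 members had a log2 fold change below 0 against palmitate and 40 against A66. Of these, 21 and 23 had an unadjusted p under 0.05, while 14.4% and 14.6% of all genes did in either direction. Against palmitate 5 of 45 passed the test, all lower (Ndufv2, Ndufb7, Ndufa12, Ndufv3 and Ndufb10), beside 1.84% of all genes. Against A66 4 passed, all lower (Ndufb7, Ndufb10, Ndufb3 and Ndufb8), beside 1.27% of all genes. The median difference of the members was -0.11 on the log2 scale in each. No assembly factor passed the test in any comparison with all libraries kept.

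The libraries held 42247091 to 57529803 counts, and 3 counts, taken as the floor, came to 0.0521 to 0.0710 CPM (counts scaled by the library total), an amount that covers counting error only. Of the 46 members, 45 passed the filter on low counts, and Ndufa4l2 did not. The members took 0.344 and 0.348% of all counts where both agents were given, 0.371 and 0.374% with palmitate alone, 0.379 and 0.371% with A66 alone, and 0.358 and 0.383% in the untreated libraries. The untreated libraries stood apart from each other for these genes: 39 of 45 members were higher in replicate 2 than in replicate 1, by a median of 0.081 on the log2 scale, whereas the median over all genes tested was 0. The corresponding medians were 0.055 for both agents, 0.023 for palmitate and -0.034 for A66. The study's methods call the 2 RNA samples of a group biological repeats, and the labels name no cultures, so the p-values measure the spread between these samples.

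The cells carried the marker transcripts of adipocytes. All 10 adipocyte markers were detected, with a summed level of 15203 to 16215 CPM with palmitate plus A66, 15763 to 16681 with palmitate, 17395 to 18023 with A66 and 17716 to 17856 in untreated cells. Ucp1 of thermogenic fat cells was at 0 in every library, and the 3 thermogenic markers together reached at most 0.466 CPM.

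**Figure D1:**
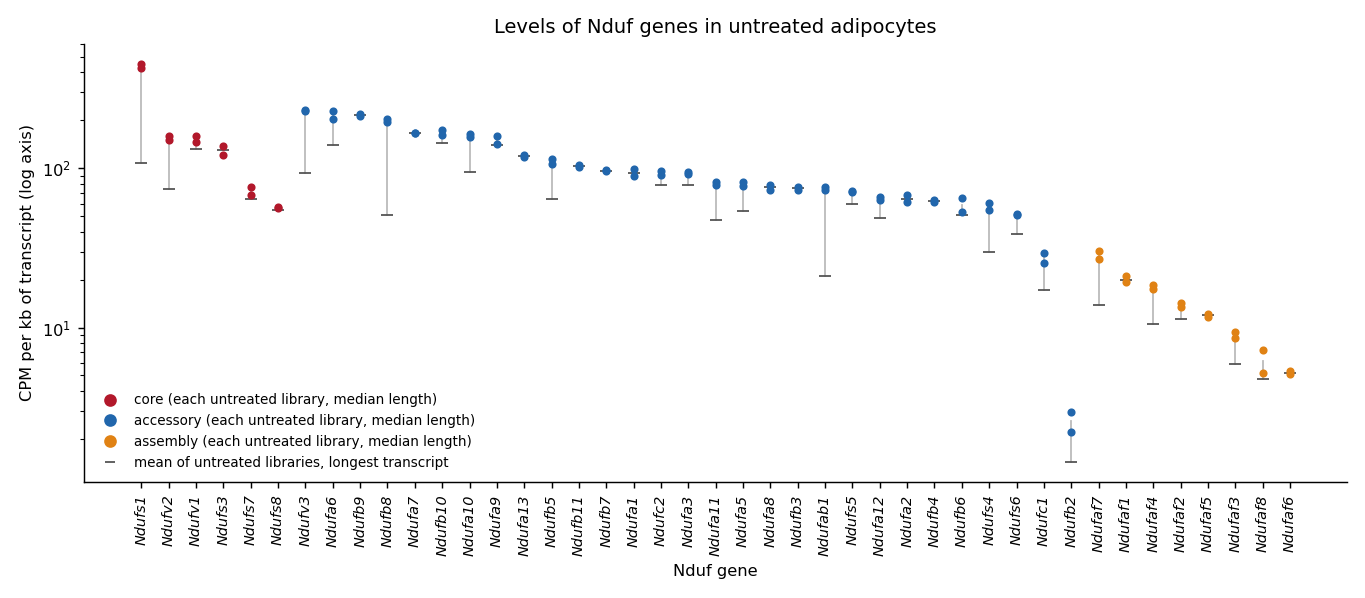
Level of Nduf genes of the core, accessory and assembly classes in untreated adipocytes, in CPM per kilobase of transcript on a log axis. Points are the 2 untreated libraries with the median length of the protein-coding transcripts, and dashes are their mean with the longest transcript, so the grey line shows how far the level moves with the length that is chosen (Ndufs1 from 439 to 107).

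Levels were compared between genes only after division by transcript length. The 8 assembly factors lay between 5.21 CPM per kb (Ndufaf6) and 28.6 (Ndufaf7) in untreated cells, below all 7 core subunits, which lay between 56.7 (Ndufs8) and 439 (Ndufs1). Among the core genes, Ndufs1, which encodes the largest subunit and carries iron-sulfur clusters, had the highest level, Ndufv2 was at 155, Ndufv1 at 154, Ndufs3 at 129.6 and Ndufs7 at 72.3 CPM per kb. Ndufv2 and Ndufv1 did not differ beyond the spread between the untreated libraries (SD 6.90 and 9.11, n = 2) with the median transcript length, but with the longest transcript they lay apart, at 74.2 and 133 CPM per kb. The first place of Ndufs1 rests on the length: its median transcript has 651 nucleotides and its longest 2661, and with the longest transcript it was at 107 CPM per kb and no longer first.

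The accessory subunits spanned 2.59 (Ndufb2) to 230.5 CPM per kb (Ndufv3) with the median transcript length. With the longest transcript Ndufv3 was at 94.0 CPM per kb and Ndufb9 was first, at 216. Ndufb2 lay far below the next accessory gene, Ndufc1 at 27.5. Its exons overlap those of Braf on the other strand and of another annotated gene on its own strand, so its level is uncertain. Ndufa4 was at 351 CPM per kb and its relative Ndufa4l2 at 0.120. The order of the classes was alike in every group: with palmitate plus A66 the assembly factors spanned 4.62 to 28.2 CPM per kb and the core genes 54.7 to 411.

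**Figure D2:**
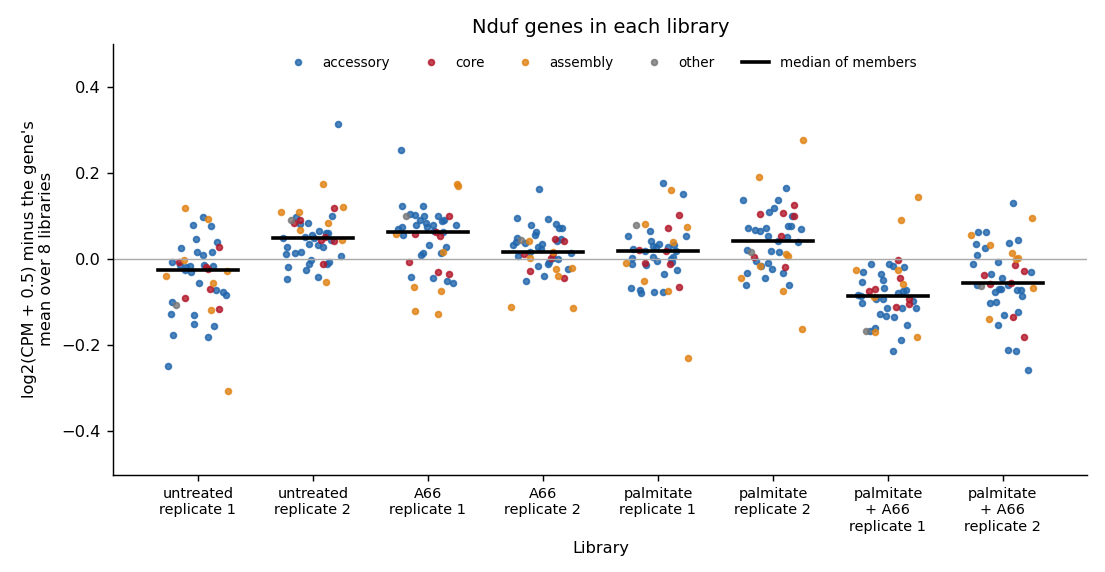
Each of 45 Nduf genes in each of the 8 libraries, as log2(CPM + 0.5) minus the mean of that gene over all libraries, coloured by class, with the median of the members as a black bar. The bars lie at -0.085 and -0.055 with palmitate plus A66, at -0.025 and 0.048 in untreated cells, and above 0 in the 4 other libraries.

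A66 against untreated cells gave small differences on both sides of 0. Of 45 members, 32 had a log2 fold change above 0 and 13 below it, with a median of 0.037 beside -0.0011 over all 14158 genes tested. The accessory subunits had a median of 0.055, the core subunits 0.013 and the assembly factors -0.043. Ndufb9, an accessory subunit at the far end of the membrane arm, was the single member called, with 1.07% of all genes called higher and 0.77% called lower. In 12 members both A66 libraries were above both untreated ones and in 5 they were below, beside 20.3% and 22.3% of all genes.

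Ndufb9 lies at chr15:58933756-58939488 on the plus strand (GRCm38). Its level was 149 and 155 CPM in untreated cells and 174 and 171 CPM with A66. Both A66 libraries exceeded both untreated libraries, and the log2 fold change was 0.19 (SE 0.041, adjusted p = 0.0176, edgeR). The call was lost without either A66 library (log2 fold change 0.17, adjusted p = 0.263 without replicate 1, and 0.20, adjusted p = 0.130 without replicate 2). It held after a correction for transcript length with the median length (adjusted p = 0.0265) but not with the longest transcript (0.13, adjusted p = 0.0809).

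No other member passed. The smallest p after that of Ndufb9 belonged to 2 accessory subunits that were higher with A66, Ndufa2 (0.21, SE 0.06, adjusted p = 0.0747) and Ndufa1 (0.21, SE 0.066, adjusted p = 0.128). Among the members with a negative difference, Ndufaf4 had the smallest p. Ndufaf4, a factor in the early assembly of the matrix arm, was at 37.4 and 39.6 CPM in untreated cells and 32.0 and 35.4 with A66, without overlap, with a log2 fold change of -0.19 (SE 0.063, adjusted p = 0.152). Ndufv2, the core subunit that carries an iron-sulfur cluster beside the flavin site, was at 122 and 129.8 against 117 and 116 CPM, with a difference of -0.11 (SE 0.044, adjusted p = 0.256). Both A66 libraries were below both untreated ones in each of these genes. Ndufs7, a core subunit at the ubiquinone site, had the smallest p among core genes with a positive difference, 0.11 (SE 0.053, adjusted p = 0.407), and its libraries overlapped.

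These counts changed with the libraries kept. With a library left out, 1 group is a single library and the spread comes from the other group alone. Without untreated replicate 1, 4 members were called, 3 of them lower (Ndufa10, Ndufaf4 and Ndufv2) and Ndufb9 higher, and the median of the members was 0.0019, with 401 genes called over all. Without untreated replicate 2, 9 were called, all higher, and the median was 0.072, while the calls over all genes rose to 635, 396 of them higher, beside 152 higher and 109 lower with all libraries. Without A66 replicate 1 no member was called, and without A66 replicate 2 Ndufa1 alone was, with 102 and 98 genes called over all.

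Palmitate against untreated cells gave no call among the 45 members in edgeR and none in DESeq2, with 0.631% of all 14587 genes called higher and 0.542% lower. At an unadjusted p under 0.05 there were 5 members higher and 2 lower, 15.6% of the members beside 12% of all genes. The median of the members was 0.017, with 27 above 0 and 18 below. Its sign turned after the length correction (-0.0012, or -0.016 with the longest transcript), without untreated replicate 1 (-0.033, with 31 below 0) and without palmitate replicate 2 (-0.0012). Both palmitate libraries lay above both untreated ones in 8 members and below in 4, beside 20.4% and 20.2% of all genes. Ndufaf4 had the smallest p: its level was 33.2 and 33.2 CPM with palmitate, below both untreated libraries, a log2 fold change of -0.21 (SE 0.059, adjusted p = 0.0917). Ndufa12, an accessory subunit of the matrix arm that joins late in assembly, was at 55.2 and 53.3 CPM in untreated cells and 62.1 and 60.4 with palmitate, 0.17 on the log2 scale (SE 0.055, adjusted p = 0.150). Ndufs8, a core iron-sulfur subunit, was at 55.1 and 55.6 against 58.9 and 60.3 CPM (0.11, SE 0.051, adjusted p = 0.405), and Ndufaf5, an assembly factor that modifies Ndufs7, was at 13.6 and 14.2 against 16.6 and 14.9 CPM (0.18, SE 0.086, adjusted p = 0.409).

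**Figure D3:**
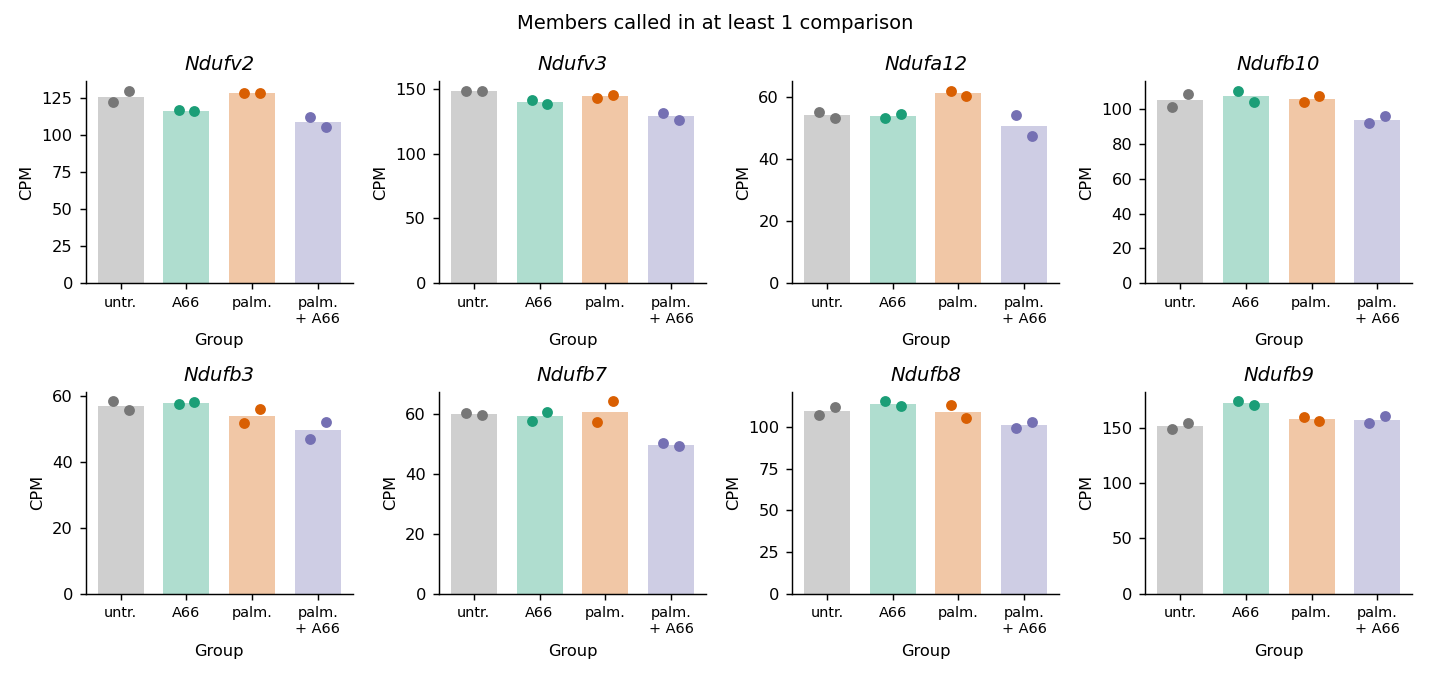
Level in CPM, from 0, of the 8 Nduf genes called in at least 1 comparison. Points are libraries and bars are means of 2. In Ndufb7, Ndufb8, Ndufb10, Ndufv2 and Ndufv3 both libraries with palmitate plus A66 lie below all the other 6, and in Ndufb9 both A66 libraries lie above all the other 6.

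In cells that also received palmitate, most members were lower with A66, though few passed the test. Of 45 members, 38 had a log2 fold change below 0 against palmitate alone, and the median was -0.11, beside -0.00079 over all genes tested. The 5 members called all fell, with 1.84% of all genes called lower and 0.973% higher. At an unadjusted p under 0.05 there were 21 members, all lower, which is 46.7% of the members beside 14.4% of all genes in either direction. Without palmitate replicate 2 or palmitate plus A66 replicate 1 there were 10, beside 10.3% and 11.8% of all genes. Both libraries with palmitate plus A66 lay below both palmitate libraries in 26 members and above in 1, beside 22.4% and 21.9% of all genes.

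Ndufv2 was at 128 and 128 CPM with palmitate and 112 and 106 with both agents. The groups did not overlap, and Ndufv2 fell by 0.24 on the log2 scale (SE 0.044, adjusted p = 0.00325). The other 6 core genes were also below 0, from -0.16 (Ndufs8) to -0.014 (Ndufv1), and none of them passed. Ndufs8 was at 58.9 and 60.3 against 55.9 and 51.0 CPM (adjusted p = 0.111). Its groups did not overlap. Ndufs3, an early building block of the matrix arm, was at 134 and 145 against 129 and 129.8 CPM, and Ndufs7 at 61.7 and 70.4 against 60.0 and 63.2, where the libraries overlapped. Ndufs1 was at 282 and 279 against 264 and 271 CPM (-0.069, SE 0.041), and Ndufv1, which binds the flavin and oxidizes NADH, at 220.0 and 219 against 215 and 219.7 (SE 0.043).

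Among accessory subunits of the matrix arm, Ndufa12 was at 62.1 and 60.4 CPM with palmitate and 54.2 and 47.3 with both agents, and fell by 0.27 (SE 0.056, adjusted p = 0.00736). Both palmitate libraries were also above the untreated ones for this gene, and the libraries with both agents lay on either side of 53.3 CPM, the lower untreated value. An annotated near-identical copy, Gm15920, held 668 counts in the untreated libraries against 5226 for Ndufa12, so reads may have been split between them. Ndufv3, a small subunit beside the flavin site, was at 144 and 146 against 132 and 126 CPM, without overlap, and fell by 0.17 (SE 0.041, adjusted p = 0.0273).

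In the distal membrane arm, Ndufb7, which faces the intermembrane space, was at 57.3 and 64.3 CPM with palmitate and 50.3 and 49.4 with both agents. It fell by 0.29 (SE 0.054, adjusted p = 0.00359). Ndufb10, a neighbour on the same face, was at 104 and 108 against 92.2 and 96.1 CPM and fell by 0.17 (SE 0.047, adjusted p = 0.0474). In both genes all libraries with palmitate plus A66 lay below those with palmitate. Ndufb8, the distal subunit whose protein the study followed by immunoblot, was at 113 and 105 against 99.2 and 103 CPM, also without overlap, and did not pass (-0.11, SE 0.046, adjusted p = 0.225). Ndufb9 was at 160.0 and 156 against 154 and 161 CPM, with overlap (-0.0059, SE 0.042). The study's immunoblot of the Ndufb8 protein was made after A66 for a shorter time, with no palmitate named, and complex I protein was reported higher. For A66 against untreated cells the Ndufb8 transcript differed by 0.058 (SE 0.043, adjusted p = 0.644, edgeR), with both A66 libraries higher.

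The assembly factors had a median of -0.022, with 5 of 8 below 0 and none at an unadjusted p under 0.05. Ndufaf3, which works with Ndufaf4, was at 8.18 and 9.75 against 7.96 and 7.67 CPM (-0.20, SE 0.11, adjusted p = 0.442). Ndufaf4 itself was at 33.2 and 33.2 against 34.4 and 35.4 CPM (0.07, SE 0.06), the 1 member with both libraries higher with both agents. Ndufa10, an accessory subunit of the proximal membrane arm, had the smallest p among accessory genes above 0, at 173 and 182 against 181 and 191 CPM (0.067, SE 0.043, adjusted p = 0.519). The errors of the assembly factors ran from 0.060 (Ndufaf4) to 0.19 (Ndufaf8), so their differences were measured less precisely than those of most subunits. With palmitate Ndufaf8 had 191 and 263 counts and Ndufaf4 had 1923 and 1782.

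Leaving out a library reduced the 5 calls to between 1 and 3, and over all genes the calls came to 147 to 426, beside 142 higher and 268 lower with all libraries. Ndufv3 and Ndufb10 were lost whichever of the 4 libraries was left out, with log2 fold changes of -0.20 to -0.14 in each. Ndufv2 (-0.20) and Ndufa12 (-0.17) were lost without palmitate plus A66 replicate 2, and Ndufb7 (-0.20) without palmitate replicate 2. The log2 fold change of Ndufa12 was -0.37 without palmitate plus A66 replicate 1. The median of the members stayed between -0.14 and -0.076.

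Palmitate plus A66 against A66 gave a like picture, but it shares the libraries with both agents with the previous comparison, so the values are given side by side and not as separate support. Of 45 members, 40 were below 0 with a median of -0.11, beside 0.00044 over all genes tested, and 23 had an unadjusted p under 0.05, all lower, which is 51.1% of the members beside 14.6% of all genes in either direction. Without A66 replicate 1 there were 11, beside 9.43% of all genes, and without palmitate plus A66 replicate 1 there were 14, beside 9.89%. The 4 calls all fell, with 1.27% of all genes called lower and 1.46% higher. In 31 members both libraries with both agents lay below both A66 libraries and in 2 they lay above, beside 23.4% and 23.2% of all genes.

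The 4 members called belong to the distal membrane arm, though other settings also called members outside it. Ndufb7 was at 57.9 and 60.7 CPM with A66 and 50.3 and 49.4 with both agents, and fell by 0.25 (SE 0.054, adjusted p = 0.00942). Ndufb10 was at 111 and 104 against 92.2 and 96.1 CPM and fell by 0.19 (SE 0.047, adjusted p = 0.0243). Ndufb3, a small distal subunit with a single membrane span, was at 57.8 and 58.3 against 47.0 and 52.3 CPM and fell by 0.22 (SE 0.056, adjusted p = 0.0288). In these 3 genes the groups did not overlap. Ndufb8 was at 115 and 113 against 99.2 and 103 CPM, also without overlap, and fell by 0.18 (SE 0.046, adjusted p = 0.0375), a call that missed the threshold after the length correction with the median transcript (-0.16, adjusted p = 0.0523) and held with the longest transcript (-0.18, adjusted p = 0.0276). The correction with the median transcript also called Ndufa13, a subunit of the proximal membrane arm (-0.14, SE 0.041, adjusted p = 0.0623 without it and 0.0450 with it), as did DESeq2, library size only, no filter on low counts and a fit on the 4 libraries compared.

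The core genes were all below 0, from -0.14 (Ndufs7, adjusted p = 0.271) to -0.058 (Ndufs1), and none passed. The assembly factors had a median of -0.0013, with 4 above 0 and 4 below. Ndufaf5 (0.10, SE 0.087) and Ndufaf2 (-0.13, SE 0.13), the factor whose place Ndufa12 takes in the finished enzyme, had the smallest p in either direction, and neither passed (adjusted p = 0.669 and 0.720). Without palmitate plus A66 replicate 1 no member was called, and leaving out A66 replicate 1, A66 replicate 2 or palmitate plus A66 replicate 2 gave 1, 2 and 3 calls, of which 1, 1 and 2 were among the 4 called with all libraries. Over all genes these 4 fits gave 140, 107, 271 and 346 calls, beside 213 higher and 185 lower with all libraries. The call of Ndufb8 was lost whichever of the 4 libraries compared was left out, with log2 fold changes of -0.20 to -0.15.

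Marker levels differed between these groups too. The 6 markers of pre-adipocytes and fibroblasts summed to 4146 and 4450 CPM with palmitate, 4163 and 4047 with A66, and 3680 and 3920 with both agents, with Dlk1 at 0 throughout. The 4 macrophage and leukocyte markers summed to 4.20 and 3.86 CPM with palmitate, 2.67 and 3.28 with A66, and 5.40 and 5.74 with both agents, nearly all of it from Cd68. The 3 endothelial markers stayed at 0.832 CPM or below in every library. Not every marker followed its sum. Most of the pre-adipocyte and fibroblast sum was Col3a1 (2953 and 3169 CPM with both agents). Ly6a was at 24.4 and 19.6 CPM with both agents and 18.6 and 15.4 with palmitate. Most of the adipocyte sum was Lpl (8164 and 8518 CPM with both agents). Pparg was at 300 and 311 CPM with both agents and 314 and 310 in untreated cells. The adipocyte sums with both agents overlapped those with palmitate. The part of these differences, and of the adipocyte sums given above, in the Nduf results was not tested. In bulk RNA fewer cells of a type and less RNA per cell cannot be told apart.

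**Figure D4:**
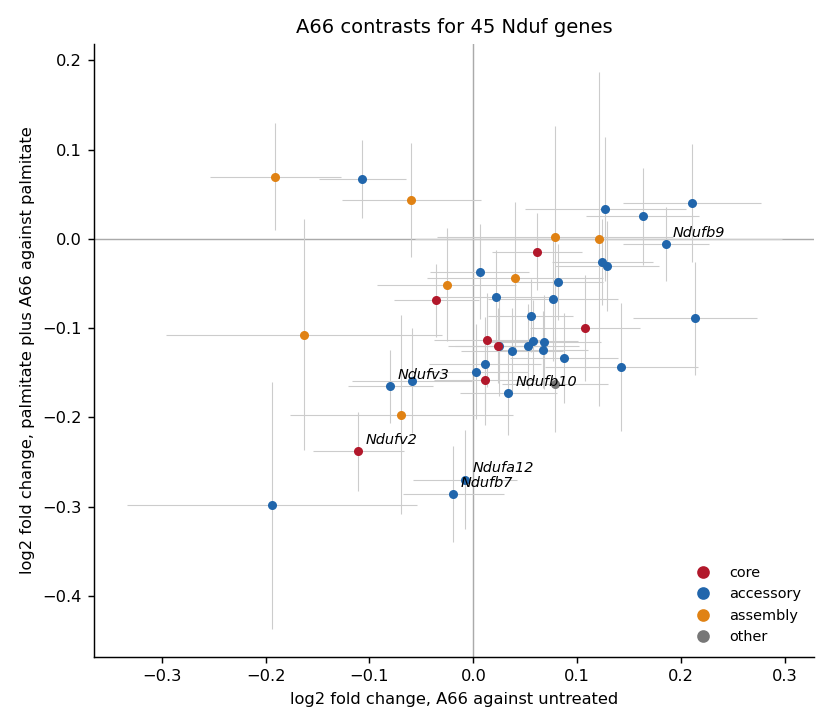
Log2 fold change of 45 Nduf genes for A66 against untreated cells (x axis) and for palmitate plus A66 against palmitate (y axis), with standard errors, coloured by class; the genes called in either are named. The 2 contrasts share no library. Most points lie right of 0 and below 0.

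Whether A66 acted differently with and without palmitate was tested by the interaction of A66 and palmitate. No member was called in edgeR or in DESeq2, and of all genes 0.00686% (1 gene) were called higher and 0% lower. At an unadjusted p under 0.05 edgeR gave 2 members above 0 and 20 below, 48.9% of the members beside 7.92% of all genes. These 22 came to 9 after the length correction with the longest transcript, beside 7.53% of all genes. They came to 12 without untreated replicate 1 (7.49% of all genes) or A66 replicate 1 (5.59%), to 14 without palmitate replicate 2 (6.97%), and to 27 without untreated replicate 2 (8.81%). The median of the members was -0.14, with 41 of 45 below 0, beside 0.0021 over all genes tested. Ndufb7 had the smallest p, with an interaction of -0.26 (SE 0.076, adjusted p = 0.364). Its levels in untreated, A66 and palmitate cells overlapped (60.5 and 59.8, 57.9 and 60.7, and 57.3 and 64.3 CPM), and those with both agents lay below all of them. Ndufs7 had the smallest p of the core genes (-0.20, SE 0.085, adjusted p = 0.573). The 2 members above 0 at an unadjusted p under 0.05 were Ndufaf4 (0.26, SE 0.085, adjusted p = 0.437) and Ndufa10 (0.18, SE 0.061, adjusted p = 0.473). In Ndufaf4 the untreated libraries were the highest of all 8. A difference between the A66 contrasts with and without palmitate was thus not shown for any single member in the fit used here. With no filter on low counts 1 member, Ndufa4, was called, beside 91 genes over all.

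By position in the enzyme, the distal membrane arm had 10 of 10 members below 0 against palmitate (median -0.12, 2 called) and 10 of 10 against A66 (median -0.15, 4 called). The matrix arm had 15 of 16 below 0 against palmitate (median -0.11, 3 called) and 16 of 16 against A66 (median -0.10, 0 called). The proximal membrane arm had 6 of 9 below 0 against palmitate (median -0.086) and 8 of 9 against A66 (median -0.13), with no call in the test as fitted here and Ndufa13 called against A66 under the settings given above. Over all genes 50.3% were below 0 against palmitate and 49.8% against A66, with 1.84% and 1.27% called lower. Differences between the arms were not tested. Ndufa4 was at 144 and 155 CPM with palmitate plus A66, 171 and 164 with palmitate, 173 and 167 with A66 and 150.2 and 172 in untreated cells, and did not pass in any comparison, but with a replicate block it passed for palmitate plus A66 against A66 (adjusted p = 0.0496, beside 0.0623 without the block). It was also called there in DESeq2, with library size only, with no filter and in the fit on the 4 libraries, and with no filter also against palmitate and in the interaction.

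The other genes of the respiratory chain were counted beside the Nduf genes. With palmitate plus A66 against palmitate, all 4 subunits of complex II, all 9 of complex III and all 15 of complex V were below 0, with medians of -0.10, -0.13 and -0.10 and 1, 3 and 3 called lower, beside 1.84% of all genes. Sdhc, a membrane anchor of complex II, had an adjusted p of 0.0499, and Atp5g1, which encodes the c subunit of the ATP synthase rotor, had the smallest (log2 fold change -0.27, SE 0.05, adjusted p = 0.00299). Complex IV had 10 of 12 below 0, a median of -0.065 and no call. Of the 12 complex I assembly factors under other names that were tested, all were below 0 (median -0.061) and none was called. The 7 core subunits encoded by mitochondrial DNA had 5 above 0, a median of 0.021, a range of -0.047 to 0.33, 1 with an unadjusted p under 0.05 and no call, and their difference from the Nduf genes was not tested. Against A66, complexes II, III, IV and V had medians of -0.12, -0.13, -0.082 and -0.11, with 0, 2, 0 and 4 called lower, beside 1.27% of all genes, and the mitochondrial core subunits 0.037 with no call.

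With A66 against untreated cells, complexes III, IV and V had 1 call each, higher, beside 1.07% of all genes, with medians of 0.023, 0.087 and 0.036. The mitochondrial core subunits had a median of -0.069 with 1 called higher (mt-Nd6). Of these 7, 3 were above 0 and 4 below, from -0.13 to 0.40. At an unadjusted p under 0.05 there were 2 higher and 3 lower, 71.4% beside 12.8% of all genes. With palmitate against untreated cells none of these lists held a call. The 7 regulators of mitochondrial genes were Nrf1, Gabpa, Yy1, Esrra, Ppargc1a, Ppargc1b and Tfam. With palmitate against untreated cells all 7 were below 0, with a median of -0.075 and no call. At an unadjusted p under 0.05 there were 3, all lower, 42.9% beside 12% of all genes. With A66 against untreated cells no regulator reached that level. With both agents against palmitate 1 higher and 2 lower did, beside 14.4% of all genes, with a median of 0.018 and no call. Against A66 3 did, all lower, beside 14.6% of all genes, with a median of -0.095. Of these, 1 was called, beside 1.27% of all genes called lower. This was Ppargc1b, a coactivator of mitochondrial genes (-0.41, SE 0.078, adjusted p = 0.00314).

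Most Nduf transcripts are short, with a median of 782 nucleotides beside 2024 over the genes tested, and 43 of 45 were under that value. Across the members, Spearman's rho between the log2 fold change and the median transcript length was -0.45 for A66 against untreated, -0.23 for palmitate against untreated, 0.17 for palmitate plus A66 against palmitate, 0.44 against A66, and 0.52 for the interaction. These are descriptions over 45 genes of the same libraries. After a correction for length the medians of the members were 0.027, -0.0012, -0.10, -0.11 and -0.12 in that order, and the same 5 members remained called against palmitate. With the longest transcript in the correction, chosen after the data had been seen, the medians were 0.0064, -0.016, -0.086, -0.096 and -0.077, and Ndufb10 was no longer called against palmitate (log2 fold change -0.15, adjusted p = 0.0607) nor Ndufb3 against A66 (-0.19, adjusted p = 0.0669), beside -0.17 and -0.22 without a correction.

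Ndufv2 lies at chr17:66078638-66101559 on the minus strand, Ndufv3 at chr17:31520115-31531331 on the plus strand, Ndufa12 at chr10:94198720-94221443 on the plus strand and Ndufb7 at chr8:83566671-83571626 on the plus strand (GRCm38). Ndufb10 lies at chr17:24722060-24724478 on the minus strand, Ndufb3 at chr1:58586384-58595964 on the plus strand and Ndufb8 at chr19:44548572-44555440 on the minus strand. The exons of 15 members overlap those of another counted gene, among the members that fell Ndufb8 alone (Gm20538, same strand). Promoter windows from RefSeq (GRCm38.p6, 250 bases before to 50 after the start site) were found for 40 of the 46 members. The bases just before the start are printed for 3 members that fell and lie outside annotated exons there, and for Ndufaf4, which was not called. Capitals mark the letters GCATGCGC, a core of the NRF1 site, on either strand, and none of the 3 genes that fell held a searched motif in this stretch.

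Ndufv2 (core; chr17:66101560-66101679, minus strand): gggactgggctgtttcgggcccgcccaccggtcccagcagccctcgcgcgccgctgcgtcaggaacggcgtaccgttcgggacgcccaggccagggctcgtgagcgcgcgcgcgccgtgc
Ndufv3 (accessory, matrix arm; chr17:31519995-31520114, plus strand): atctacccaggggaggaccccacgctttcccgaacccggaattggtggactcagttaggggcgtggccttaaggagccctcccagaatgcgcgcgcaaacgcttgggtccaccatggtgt
Ndufb8 (accessory, distal membrane arm; chr19:44555443-44555562, minus strand): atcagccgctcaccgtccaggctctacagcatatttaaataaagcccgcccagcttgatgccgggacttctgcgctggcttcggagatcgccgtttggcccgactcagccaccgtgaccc
Ndufaf4 (assembly factor; chr4:24897963-24898082, plus strand): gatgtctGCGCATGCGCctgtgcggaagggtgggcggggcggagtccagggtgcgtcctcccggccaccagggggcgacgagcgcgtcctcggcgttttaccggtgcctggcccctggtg

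Sets of letters were searched on both strands of the windows, GCATGCGC (NRF1), CCGGAAG (the ETS factors, among them GABP) and AAGATGGC (YY1), factors known for the promoters of nuclear mitochondrial genes. GCATGCGC stood in 5 of 40 members (12.5%) beside 3.05% of 27025 genes with a window, CCGGAAG in 6 (15.0%) beside 9.93%, and AAGATGGC in 8 (20.0%) beside 3.19%, and 18 of the 40 held at least 1 of them beside 14.9% of all. All 8 members with AAGATGGC held it after the start site, between position 11 (Ndufaf8) and position 39 (Ndufb8). The 5 members with GCATGCGC (Ndufa6, Ndufa8, Ndufa11, Ndufaf4 and Ndufaf5) were not called in any comparison with all libraries kept, and against palmitate Ndufa8 (-0.15), Ndufa11 (-0.16), Ndufa6 (-0.03) and Ndufaf5 (-0.044) were below 0 and Ndufaf4 (0.07) above. Of the members that fell, Ndufb7 held CCGGAAG 20 bases before the RefSeq start, a stretch that lies in an exon of the annotation used for the gene's position above. It is shown in capitals with 10 bases on each side (chr8:83566728-83566754, plus strand): cctagatgacCCGGAAGacactgaagg. Ndufv2, Ndufv3, Ndufa12, Ndufb10 and Ndufb3 held none of the letters in the window. A match of letters is a description and not a binding site, and the data hold no measurement of these factors on the promoters.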

How the data were processed

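Per the labels and the study's methods, poly(A) RNA was made into stranded libraries and aligned to GRCm38 with TopHat 2.0.11, and the authors deposited raw HTSeq counts per Ensembl gene. The annotation release, the strand setting and the HTSeq version are not given in the sources used here. The deposited columns of the authors' own comparison (means, log2 fold changes, errors and p-values) were not used. Of 43629 genes, 42462 were matched to GENCODE M21 for symbols, classes and transcript lengths.

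Counts were tested in R 4.3.3 with edgeR 4.0.16 (TMM, filterByExpr with a minimum count of 10, quasi-likelihood test, Benjamini-Hochberg adjustment over all genes tested, two-sided). A66 against untreated used its 4 libraries, and the other comparisons and the interaction used all 8. The standard error (SE) is the log2 fold change over the root of F. CPM are TMM-scaled over 8 libraries. The length correction used loess trends (span 0.4) of log2 CPM on log2 transcript length as offsets. The code was tested on simulated data. No exact test was run between 2 groups of 2.

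Near-identical copies had at least 95% identity over at least 50% of a member's transcript and at least 100 nucleotides. The members, lists and the rule for named genes (core genes, every member called, the smallest p per class, direction and comparison, and Ndufb8) were chosen with earlier results of these data known. A core gene that the rule takes is counted but its own values are not reported here. Genes outside the rule are named as the ends of a range, as exceptions, or for a leave-out call, after their values were seen. Alternatives were RLE, library size only, DESeq2 1.42.0, other filters, other libraries, a replicate block, length corrections and each library left out.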

Additional observations from a re-analysis of the deposited data

How the results depend on the processing

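Each comparison rested on 2 libraries a group, and the differences of the assembly factors with few counts were measured less precisely. The calls of single members were fragile to the loss of a library, and the cause was not tested. Of 40 values of named genes that were called with all libraries, 25 lost their call when a library was left out and 15 kept it. Of all 456 values, called or not, 4 gained a call, and 45 that were not called changed sign, from log2 fold changes of at most 0.13 in size.

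With no filter on low counts, 3 members were called for A66 against untreated and 1 for palmitate against untreated. There were 6 for palmitate plus A66 against palmitate, 7 against A66 and 1 for the interaction. The calls over all genes then rose as well, to 459, 396, 652, 664 and 91 in that order. They rose from 152 higher and 109 lower, 92 and 79, 142 and 268, 213 and 185, and 1 and 0. For A66 against untreated, the length correction with the longest transcript gave 0 calls (335 over all genes) and the replicate block with the length correction gave 2 (471 over all genes). For palmitate plus A66 against A66, library size only gave 7 calls among members and 446 over all genes, and a fit on the 4 libraries compared gave 9 and 689, beside 4 among members and 213 higher and 185 lower over all genes. The interaction median was -0.077 with the longest transcript in the length correction.

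Leaving out each library in turn gave 0 to 9 calls and medians of 0.0019 to 0.072 for A66 against untreated, 0 to 1 calls and medians of -0.033 to 0.067 for palmitate against untreated, and 1 to 3 calls for palmitate plus A66 against palmitate. It gave 0 to 3 calls for palmitate plus A66 against A66, and medians of -0.19 to -0.098 for the interaction. The median level of the members in untreated cells was 77.9 CPM per kb with the median transcript length, 64.1 with the longest transcript and 69.3 with the APPRIS principal transcript, a length chosen after the data had been seen.

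The labels do not say whether the replicate numbers pair the samples, and weak correlations cannot settle it. The correlation of deviations over 9048 genes was 0.0185 between untreated and A66 and 0.0396 between untreated and palmitate. It was 0.171 between palmitate and palmitate plus A66, and -0.154 between A66 and palmitate plus A66. With a replicate block, the calls were 1, 0, 5, 5 and 0 in the order of the report, beside 1, 0, 5, 4 and 0 without it. Over all genes the block gave 282, 195, 448, 438 and 3 calls in that order. With the numbers of the A66 libraries crossed, a pairing chosen after the data had been seen, palmitate plus A66 against A66 gave 6 calls. Over all genes that fit gave 503 calls, beside 213 higher and 185 lower without a block.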
